A study of Mus musculus with 48 samples.

Results

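The Slc25 family of mitochondrial solute carriers was measured in perfused mouse hearts of 4 ages, with and without ischaemia and reperfusion. Members were all genes whose symbol in the platform's annotation begins with Slc25a and whose probe was above background (1 minus the detection score under 0.05) on at least 6 of the 48 arrays. Of 44 such symbols considered here, 34 passed and were tested among 9811 genes, and 16 of the 34 were above background on all 48 arrays. Among the 10 that did not pass, Slc25a2, Slc25a16, Slc25a21, Slc25a34, Slc25a40, Slc25a41, Slc25a43 and Slc25a48 were above background on 0 arrays, Slc25a42 on 2 and Slc25a51 on 4. Just inside the limit lay Slc25a23 and Slc25a31, each above background on 6 arrays, and Slc25a18 on 7. Each gene was read from its brightest probe, and the second detected probe, which 6 of the 34 had, served as a check.

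Slc25 proteins sit mainly in the inner mitochondrial membrane, where each exchanges or imports a small molecule that the lipid layer does not let through. They bring ADP and phosphate to the ATP synthase and carry ATP out, they pass reducing equivalents through the malate-aspartate shuttle, and they import amino acids, cofactors, nucleotides, iron and glutathione. The heart, which makes nearly all of its ATP in mitochondria, relies on the ADP/ATP, phosphate, oxoglutarate/malate and aspartate/glutamate carriers in particular.

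The hearts came from male C57BL/6 mice collected when they were 8, 16, 32 or 48 weeks old. Every heart was excised under pentobarbital, perfused in Langendorff mode and stabilised for 20 min, so that the controls too were perfused outside the body. At each age, 6 samples of left ventricle came from hearts held in global ischaemia at body temperature for 25 min and then reperfused for 45 min (I/R). The other 6 came from hearts that received oxygenated perfusion throughout (normoxic). The labels number the 6 samples of a group without naming the mouse, and p-values therefore measure the spread between these samples.

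RNA integrity (RIN), background and detection moved with treatment, and in I/R hearts also with age. RIN was 8.50 ± 0.296 (SD, n = 24) on normoxic and 7.87 ± 0.296 (SD, n = 24) on I/R arrays, and its I/R mean went from 8.08 at 8 weeks to 7.60 at 48 weeks. Between 13362 and 15080 probes were above background on normoxic arrays, 13099 to 13854 on 8-week I/R arrays and 11072 to 12396 on 48-week I/R arrays. All 10 cardiomyocyte markers were above background on all arrays, and their summed signal was 246537 to 293376 on normoxic and 286704 to 307121 on I/R arrays (6 of 10 higher, 4 lower). Of 8 endothelial markers 7 were lower after I/R, and of 7 fibroblast markers 5 were higher and 1 lower. Of all genes 44.4% were lower and 34.6% higher. Summed fibroblast signals overlapped, with 12656 to 17251 on normoxic and 13199 to 19236 on I/R arrays. By second probe Cd93 (0.36), Col3a1 (−0.33), Pdgfra (−0.06), Ryr2 (−0.65), Ttn (0.34) and Actc1 (0.96) had log2 fold changes of the other sign. Pecam1 (−0.97), Emcn (−0.45) and Dcn (0.79) kept theirs. Under the array centrings described below, the cardiomyocyte markers Tnni3, Actc1 and Pln and the fibroblast marker Pdgfra changed direction. RIN entered an alternative model only, in which its part cannot be told apart from that of treatment. The part of detection and cell mixture in the carrier results below was not tested. In these bulk samples fewer cells of a type cannot be told apart from less RNA per cell.

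The promoters of the carriers with the highest and lowest I/R differences are shown here, because the sections on I/R turn on these genes. Slc25a4 and Slc25a13 had the highest log2 fold changes, and Slc25a36 and Slc25a11 the lowest. Each sequence runs 5′ to 3′ along the gene and holds the 250 bases before and the 50 bases after its start in RefSeq (GRCm38.p6). Capitals mark matches, on either strand, to GGGCGG, known as the GC box, to the CCAAT box, to the E-box, whose letters are CACGTG, or to the cAMP response element TGACGTCA, and none of the marked matches overlap. The windows are chr8:46211013-46211312 for Slc25a4, chr6:6217124-6217423 for Slc25a13, chr9:97110992-97111291 for Slc25a36 and chr11:70646990-70647289 for Slc25a11, all on the minus strand.
Slc25a4: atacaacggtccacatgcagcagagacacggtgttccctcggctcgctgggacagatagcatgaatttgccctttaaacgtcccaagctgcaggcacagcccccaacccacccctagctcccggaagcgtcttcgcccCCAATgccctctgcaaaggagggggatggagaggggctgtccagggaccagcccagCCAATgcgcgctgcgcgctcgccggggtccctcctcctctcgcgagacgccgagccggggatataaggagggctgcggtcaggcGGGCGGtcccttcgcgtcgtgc
Slc25a13: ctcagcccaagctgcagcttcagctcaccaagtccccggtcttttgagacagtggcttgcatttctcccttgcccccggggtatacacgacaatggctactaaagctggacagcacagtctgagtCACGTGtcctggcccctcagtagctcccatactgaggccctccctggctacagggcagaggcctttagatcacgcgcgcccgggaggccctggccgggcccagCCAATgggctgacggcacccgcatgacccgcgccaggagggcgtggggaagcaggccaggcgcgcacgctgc
Slc25a36: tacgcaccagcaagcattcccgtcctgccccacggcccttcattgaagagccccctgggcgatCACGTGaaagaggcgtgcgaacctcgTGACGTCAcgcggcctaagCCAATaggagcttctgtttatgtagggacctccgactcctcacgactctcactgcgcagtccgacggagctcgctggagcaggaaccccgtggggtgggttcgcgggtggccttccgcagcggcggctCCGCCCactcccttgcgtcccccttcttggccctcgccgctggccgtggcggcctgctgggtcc
Slc25a11: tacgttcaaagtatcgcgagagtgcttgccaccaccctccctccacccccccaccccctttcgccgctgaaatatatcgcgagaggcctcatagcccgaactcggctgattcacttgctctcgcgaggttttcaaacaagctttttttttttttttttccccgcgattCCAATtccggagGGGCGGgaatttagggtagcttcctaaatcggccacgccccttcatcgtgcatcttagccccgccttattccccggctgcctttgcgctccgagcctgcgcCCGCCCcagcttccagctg

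The Slc25a4 window held 1 GC box and 2 CCAAT boxes. That of Slc25a13 held 1 E-box and 1 CCAAT box, that of Slc25a36 each of the 4 motifs once, and that of Slc25a11 2 GC boxes and 1 CCAAT box. RefSeq windows were given for 27 of the 34 tested carriers, 36 windows in all. A GC box was found in 86.1% of these and in 35.7% of 32851 windows of all genes, CCAAT in 52.8% and 37.4%, an E-box in 22.2% and 7.15%, and a cAMP response element in 5.56% and 1.79%. Motifs of factors that act on mitochondrial genes were searched in the same way. The NRF1 motif of 10 bases lay in 5.56% of carrier windows and 4.6% of all windows. AAGGTCA, a motif bound by oestrogen-related receptors, lay in 0% and 4.72%. The carriers had passed the detection filter in these hearts, whereas the windows of all genes were not filtered, so the 2 shares are not like for like. These matches describe the letters only.

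After I/R most carriers differed from normoxic hearts with quantile normalization, 2 of them by several fold upwards and the larger number downwards. Averaged over the 4 ages, 29 of 34 carriers passed an adjusted p under 0.05 (limma), 10 higher and 19 lower. That is 85.3% of the carriers, and 78.9% of all genes tested passed as well, 34.6% higher and 44.4% lower. The median log2 fold change was −0.39 over the 34 carriers and −0.07 over all genes. The split of directions moved with the scaling. With each array centred on the median of all probes it was 3 higher and 29 lower, and the median of all genes then moved by −0.52 to −0.59. Centring over detected probes gave 14 higher and 13 lower, and with it Slc25a27, Slc25a32, Slc25a35, Slc25a46 and Slc25a53 no longer passed. Slc25a23 then passed as higher, not lower. Under either centring 17 carriers lay above and 17 below the median of all genes, against 13 and 21 with quantile normalization. In all of 10 alternative settings 14 carriers passed in the same direction. Not every setting could change a direction. The median of the 34 carriers stayed at −0.39 with the replicate block and without the detection filter. For a carrier with a single detected probe, the mean of detected probes is the same reading. The second probe, which 6 carriers had, is not among these 10 settings, and by it Slc25a11 passed in the other direction. Of the 14, Slc25a4 and Slc25a13 were higher, and Slc25a5, Slc25a10, Slc25a11, Slc25a12, Slc25a15, Slc25a22, Slc25a24, Slc25a25, Slc25a33, Slc25a36, Slc25a38 and Slc25a44 were lower. Over the 24 arrays of each treatment the values of Slc25a4, Slc25a11, Slc25a13 and Slc25a15 did not overlap (4 of 34 carriers, 10.7% of all genes). Among the 16 carriers above background on all arrays, all 16 passed, 7 higher and 9 lower. The share passing among all genes above background on all arrays was not computed, so this count has no background to be read against.

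Among the carriers of adenine nucleotides and phosphate, all 7 tested passed, 3 higher and 4 lower, against 78.9% of all genes. Of these, Slc25a23 and Slc25a31 met the detection filter wholly or mostly through the treatment in which they were higher, and add little to the count. Slc25a4, the ADP/ATP carrier of heart and muscle, had a normalized log2 signal from 5.01 through a median of 5.66 to 6.27 on the 24 normoxic arrays and from 7.43 through 8.44 to 9.04 on the 24 I/R arrays. The 2 ranges did not overlap. The log2 fold change was 2.72 ± 0.0764 (SE, adjusted p = 5.43e-32, limma), 6.60-fold. Its probe was above background on 11 of 24 normoxic arrays, and against normoxic arrays raised to their lowest detected signal the fold was 5.95. With a single probe on the platform, Slc25a4 had no second reading, and how well this probe reads the transcript was not tested. In the authors' processed values, whose transform is not stated, its I/R difference was 1.12. Slc25a5, the ADP/ATP carrier of most other cells, moved the other way, from 13.18, 13.48 and 13.65 (lowest, median, highest) on normoxic to 12.69, 13.08 and 13.27 on I/R arrays. These ranges overlapped over all ages, although within each age the 6 I/R values lay below the 6 normoxic ones. The log2 fold change of Slc25a5 was −0.42 (adjusted p = 2.32e-14).

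Slc25a3, the carrier that brings phosphate to the ATP synthase, ran from 13.53 to 13.97 (median 13.74) on normoxic and from 13.81 to 14.30 (median 14.04) on I/R arrays. Its log2 fold change was 0.30 ± 0.0349 (SE, adjusted p = 2.52e-10), and −0.28 with centring on all probes, where the median of all genes was −0.59. The calcium-regulated ATP-Mg/phosphate carriers, which load or empty the matrix pool of adenine nucleotides, were lower after I/R with quantile normalization. Slc25a25 ran from 7.44 to 8.68 (median 8.10) on normoxic and from 5.86 to 8.20 (median 7.41) on I/R arrays, a log2 fold change of −0.82 ± 0.118 (SE, adjusted p = 2.77e-08), with 23 of 24 I/R arrays above background. Slc25a24 was above background on 24 of 24 normoxic but 8 of 24 I/R arrays, with a log2 fold change of −0.59 ± 0.0695 (SE, adjusted p = 2.06e-10). Slc25a23 was above background on 6 normoxic and 0 I/R arrays, and so met the detection filter through normoxic hearts only. No fold is given for Slc25a23 (adjusted p = 1.74e-06), whose log2 difference was −0.36. With centring over detected probes it was 0.19 and passed as higher (adjusted p = 0.0224). Slc25a31, known as the ADP/ATP carrier of germ cells, was above background on 1 normoxic and 5 I/R arrays. Its log2 difference of 0.26 (adjusted p = 0.00207) was 0.08 with RIN in the model (adjusted p = 0.605).

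The malate-aspartate shuttle, which moves the electrons of cytosolic NADH into mitochondria, draws on an oxoglutarate/malate carrier and an aspartate/glutamate carrier. Of its carriers, Slc25a13 (citrin) was higher and Slc25a12 (aralar) lower, while the probes of Slc25a11 disagreed. Slc25a13 ran from 5.66 to 6.84 (median 6.32) on normoxic and from 7.70 to 8.72 (median 8.26) on I/R arrays, with no overlap. The log2 fold change was 1.97 ± 0.0736 (SE, adjusted p = 2.28e-27), 3.91-fold. Slc25a12, the aspartate/glutamate carrier typical of heart and brain, ran from 9.80 to 10.54 (median 10.28) on normoxic and from 8.95 to 9.87 (median 9.71) on I/R arrays. The 2 sets overlapped by little, and at each of the 4 ages every I/R value of Slc25a12 lay below every normoxic one. Its log2 fold change was −0.59 ± 0.0486 (SE, adjusted p = 5.25e-15).

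Slc25a11, the oxoglutarate/malate carrier, ran from 12.58 to 13.01 (median 12.74) on normoxic and from 11.46 to 12.04 (median 11.82) on I/R arrays, again without overlap. The log2 fold change of its brightest probe was −0.95 ± 0.0331 (SE, adjusted p = 1.54e-28). Its second probe gave 0.17 (adjusted p = 0.00381 in a fit of second probes), so that the 2 probes passed in opposite directions. Opposite calls were common on this platform: of 1886 genes whose first and second probes both passed for I/R, 817 (43.3%) did so in opposite directions. Among the 6 carriers with a second probe all passed with both, 3 in the same direction (Slc25a15, Slc25a36, Slc25a38) and 3 in opposite directions (Slc25a11, Slc25a30, Slc25a46). Of the other carboxylate carriers, Slc25a10 (dicarboxylates) had a log2 fold change of −0.47 (adjusted p = 5.70e-06) and was above background on 17 of 24 I/R arrays. Slc25a1 (citrate) had 0.23 (adjusted p = 0.00439) and, with centring on all probes, −0.14.

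**Figure D1:**
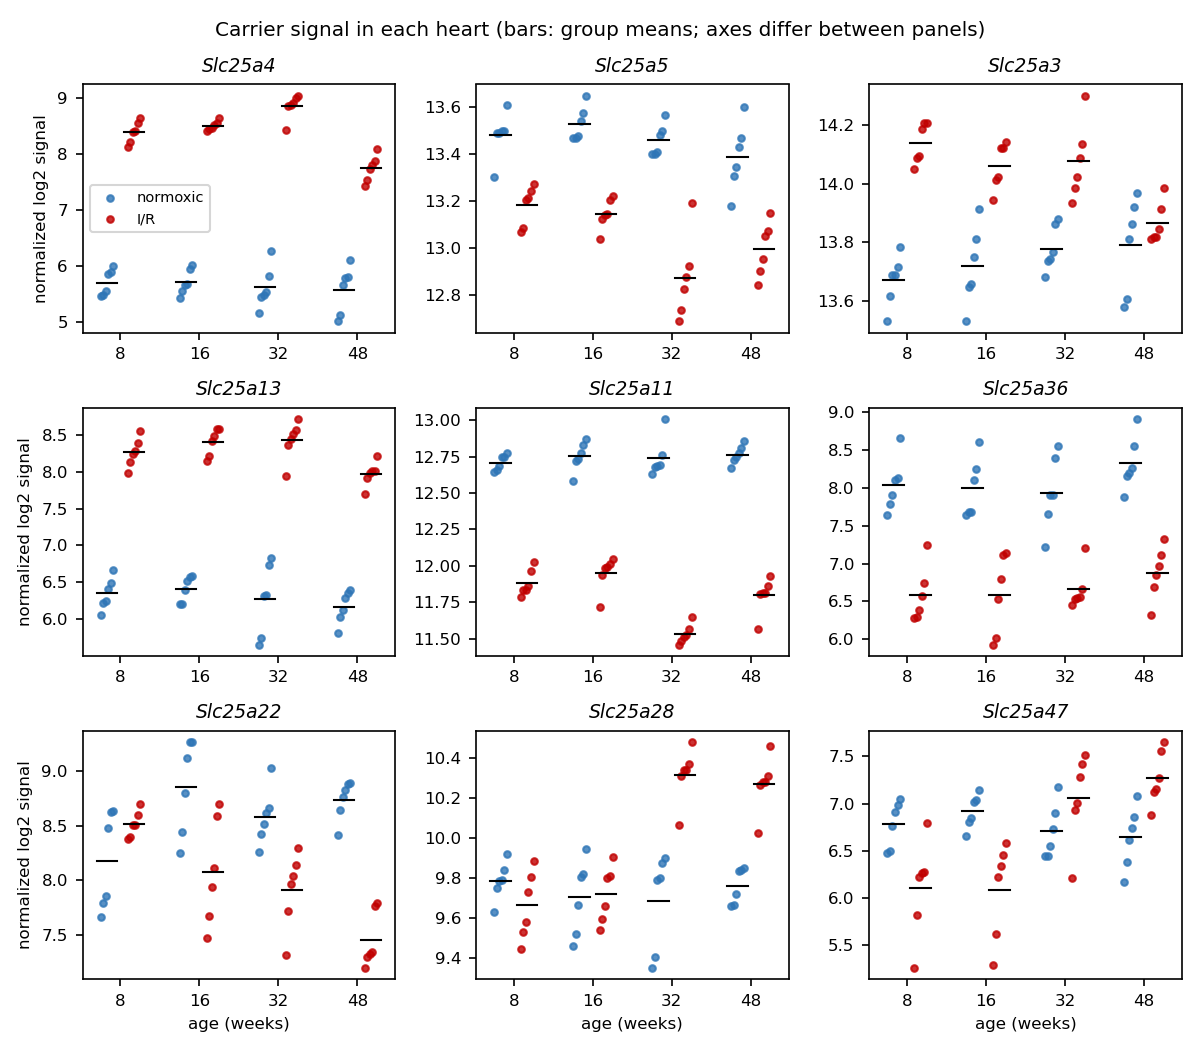
Normalized log2 signal of 9 carriers on each array by age in weeks (6 arrays per group, drawn in order of value, blue normoxic, red I/R, bars the group means). The colours do not overlap at any age for Slc25a4, Slc25a13, Slc25a11, Slc25a5 and Slc25a36. For Slc25a28 they separate at 32 and 48 weeks, and for Slc25a47 the red points lie lowest at 8 and 16 weeks.

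Of the 8 amino acid carriers tested, citrin was higher and 5 were lower, while Slc25a18 and Slc25a29 did not pass. Slc25a15, which brings ornithine into mitochondria, ran from 7.87 to 8.43 (median 8.15) on normoxic and from 6.90 to 7.71 (median 7.29) on I/R arrays, with no overlap. Its log2 fold change was −0.82 ± 0.0488 (SE, adjusted p = 7.36e-20), and −0.24 by the second probe (adjusted p = 0.000701). Slc25a22, a glutamate carrier, ran from 7.66 to 9.26 (median 8.63) on normoxic and from 7.20 to 8.70 (median 8.00) on I/R arrays. The ranges of Slc25a22 overlapped, with a log2 fold change of −0.60 ± 0.0957 (SE, adjusted p = 3.07e-07). Slc25a44 (branched-chain amino acids) and Slc25a38 (glycine for haem synthesis) had log2 fold changes of −0.54 and −0.44, the latter −0.54 by its second probe. For Slc25a29 (basic amino acids), above background on 23 arrays of each treatment, the value was 0.10, or −0.38 with centring on all probes. For Slc25a18 (glutamate), above background on 3 normoxic and 4 I/R arrays, it was −0.10, or 0.43 with centring over detected probes.

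The carriers of cofactors and nucleotides held the lowest value of the family. Slc25a36, a pyrimidine nucleotide carrier, ran from 7.21 to 8.91 (median 8.10) on normoxic and from 5.93 to 7.33 (median 6.62) on I/R arrays. The overlap was small over all ages, and there was none within an age. Its log2 fold change was −1.40 ± 0.110 (SE, adjusted p = 1.44e-15), and −0.31 by the second probe (adjusted p = 0.0122). Slc25a33, the other pyrimidine nucleotide carrier, had a log2 fold change of −0.56 ± 0.0742 (SE, adjusted p = 3.97e-09), with 8.61 to 9.70 on normoxic and 7.87 to 9.20 on I/R arrays. Slc25a32 (folate and FAD) was above background on 20 normoxic and 6 I/R arrays, with a log2 difference of −0.47, or −0.09 with centring over detected probes (adjusted p = 0.321). Slc25a17, a carrier of peroxisomes, ran from 6.73 to 7.96 (median 7.42) on normoxic and from 7.61 to 8.49 (median 8.15) on I/R arrays. Its log2 fold change of 0.72 ± 0.0737 (SE, adjusted p = 4.02e-12) was 0.03 with centring on all probes (adjusted p = 0.744). Slc25a26, which imports S-adenosylmethionine, had 0.44 ± 0.0397 (SE, adjusted p = 1.01e-13) and, with that centring, −0.30.

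Iron and glutathione carriers split between them. Slc25a37 (mitoferrin 1) had a log2 fold change of −0.44 (adjusted p = 4.18e-05) and was above background on 24 normoxic and 14 I/R arrays. Slc25a39, the glutathione carrier, had 0.29 ± 0.0415 (SE, adjusted p = 2.30e-08) and Slc25a28 (mitoferrin 2) 0.26 (adjusted p = 4.13e-06). With centring on all probes these were −0.39 and −0.48, against −0.59 for the median of all genes. Among the homologues of uncoupling proteins, Slc25a30 had 0.38 ± 0.0596 (SE, adjusted p = 1.85e-07) by its brightest probe and −0.47 by its second (adjusted p = 4.02e-06). Slc25a27, above background on 24 normoxic and 12 I/R arrays, had −0.23 (adjusted p = 0.0256) and, with centring over detected probes, 0.04 (adjusted p = 0.673). Slc25a14, above background on 17 normoxic and 9 I/R arrays, had −0.04, or 0.36 with that centring. Slc25a46, an outer membrane protein of mitochondrial dynamics, had −0.46 by its first and 0.37 by its second probe. Its first probe was above background on 23 normoxic and 4 I/R arrays, and gave −0.06 with centring over detected probes (adjusted p = 0.499). Of the 4 members with no assigned substrate here, Slc25a35 and Slc25a53 passed as lower and lay close to background in I/R hearts. Slc25a35 was above background on 17 normoxic and 1 I/R arrays, with a log2 difference of −0.55, or −0.09 with centring over detected probes (adjusted p = 0.397). Slc25a53 was above background on 13 normoxic and 3 I/R arrays, with −0.41, or 0.08 with that centring (adjusted p = 0.317). Slc25a47 (−0.13, 20 of 24 I/R arrays above background) and Slc25a45 (0.02, 23 of 24 normoxic arrays) did not pass, and Slc25a45 had −0.51 with centring on all probes.

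More carriers, and more genes in all, passed at 32 and 48 weeks than at 8 and 16 weeks. I/R against normoxic gave 18 of 34 carriers at 8 weeks (6 higher, 12 lower), against 52.9% of all genes (22.3% higher, 30.7% lower). At 16 weeks 17 carriers passed (5 higher, 12 lower), against 54.3% of all genes (22.3% and 32%). The count was 27 at 32 weeks (9 higher, 18 lower), against 65.7% (27.7% and 38%), and 27 at 48 weeks (10 higher, 17 lower), against 63.4% (29.2% and 34.2%). With centring on all probes the splits were 2 and 23, 2 and 21, 3 and 26, and 2 and 26, and over detected probes 5 and 11, 9 and 11, 10 and 11, and 15 and 13. The groups did not overlap for 11, 12, 17 and 16 carriers, against 29.7%, 29.6%, 40.2% and 37.2% of all genes. The median size of the log2 fold change was 0.32, 0.33, 0.61 and 0.55 over the carriers and 0.33, 0.34, 0.45 and 0.42 over all genes. At 48 weeks 22 of 34 carriers (64.7%) lay further from 0 than at 8 weeks, against 59.2% of all genes. At all 4 ages 17 carriers had a negative and 9 a positive value.

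**Figure D2:**
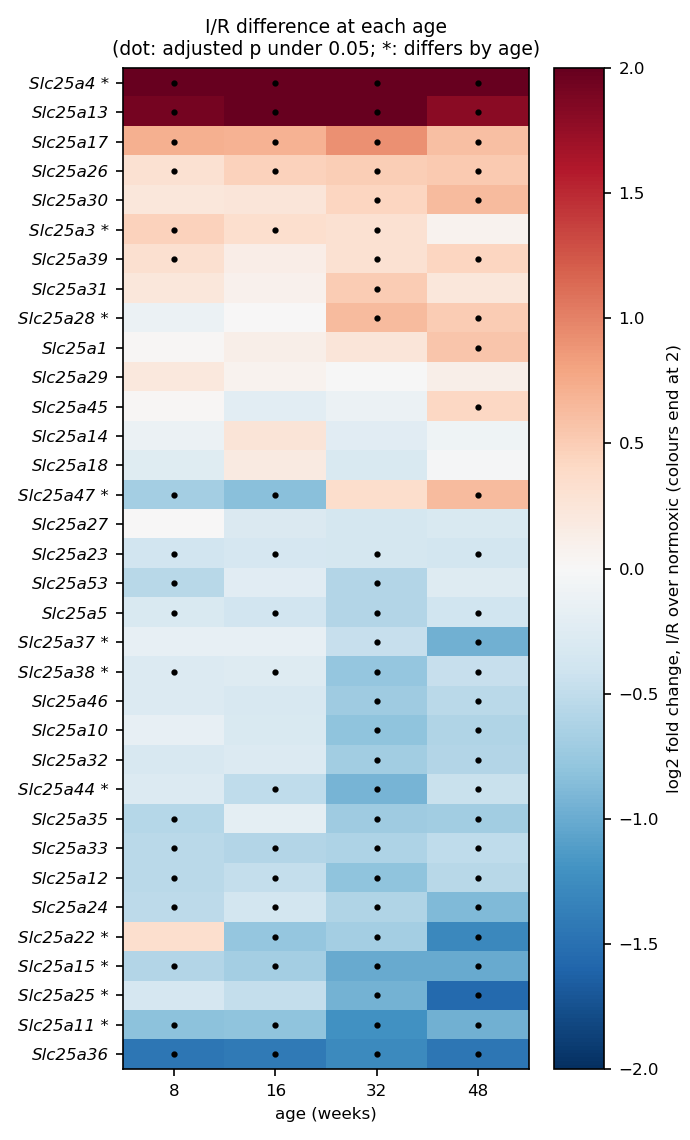
Log2 fold change of I/R over normoxic at each age for the 34 carriers (red higher, blue lower, colours end at 2), with a dot for an adjusted p under 0.05 and an asterisk where the difference depends on age. Slc25a22, Slc25a28 and Slc25a47 change sign between 8 and 48 weeks with quantile normalization, and with centring on all probes all 3 lie below 0 at both ages, with −0.28 for Slc25a22 at 8 weeks and −0.42 and −0.17 for Slc25a28 and Slc25a47 at 48 weeks.

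Whether the I/R difference itself depended on age was tested with an interaction F test. It passed for 11 of 34 carriers, and for 29.3% of all genes. Slc25a28, mitoferrin 2 (adjusted p = 1.72e-05), showed a difference at the 2 older ages with quantile normalization. Its lowest, median and highest values were 9.63, 9.79 and 9.92 on 8-week normoxic and 9.45, 9.66 and 9.88 on 8-week I/R arrays. At 48 weeks they were 9.66, 9.78 and 9.85 on normoxic and 10.03, 10.28 and 10.46 on I/R arrays, without overlap. The log2 fold changes of Slc25a28 were −0.12, 0.01, 0.63 and 0.51 at 8, 16, 32 and 48 weeks. With centring on all probes the values at 8 and 16 weeks were −0.79 and −0.57, and both passed as lower. The medians of all genes were then −0.52 and −0.48. At 32 and 48 weeks the values were −0.14, which did not pass, and −0.42, against medians of all genes of −0.62 and −0.71. With centring over detected probes Slc25a28 passed as lower at 8 weeks (−0.32) and as higher at 32 weeks (0.51). Which ages differed thus depended on the scaling.

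Slc25a22 (adjusted p = 7.72e-05) ran the other way. At 8 weeks its values were 7.66, 8.16 and 8.64 (lowest, median, highest) on normoxic and 8.37, 8.51 and 8.70 on I/R arrays, which overlapped. At 48 weeks they were 8.41, 8.79 and 8.89 on normoxic and 7.20, 7.33 and 7.79 on I/R arrays, with no overlap. The log2 fold changes were 0.34 (not passed, and −0.28 with centring on all probes), −0.78, −0.67 and −1.29 from 8 to 48 weeks, and the 48-week difference lay below the 8-week one by a log2 value of −1.63 ± 0.271 (SE, adjusted p = 2.09e-05).

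Slc25a47, described as a liver-enriched carrier (adjusted p = 9.58e-05), went from lower to higher. At 16 weeks the values were 6.66, 6.93 and 7.15 on normoxic and 5.29, 6.28 and 6.58 on I/R arrays, without overlap. At 48 weeks they were 6.17, 6.68 and 7.09 on normoxic and 6.88, 7.21 and 7.65 on I/R arrays, which overlapped. At 8 and at 16 weeks 4 of 6 I/R arrays were above background. The log2 fold changes were −0.67, −0.83, 0.35 and 0.63, and the 48-week value was −0.17 with centring on all probes (adjusted p = 0.435).

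For Slc25a4 (adjusted p = 0.00161) the I/R difference was present at every age and differed in size, with log2 fold changes of 2.69, 2.80, 3.23 and 2.17. Its I/R medians were 8.41, 8.50, 8.90 and 7.77 at the 4 ages. The 48-week I/R values, 7.43 to 8.09, lay below all those at 8 weeks, 8.13 to 8.65. Slc25a11 (adjusted p = 0.00186) had −0.82, −0.80, −1.21 and −0.97 by its first probe, and its second probe gave an adjusted p of 0.726. Slc25a38 (adjusted p = 0.00441) had −0.27, −0.26, −0.77 and −0.46. Slc25a3 (adjusted p = 0.0133) had 0.47, 0.34, 0.30 and 0.07, so that the difference in the phosphate carrier did not pass at 48 weeks. It was −0.65 at 48 weeks with centring on all probes, and the interaction was lost with centring over detected probes (adjusted p = 0.131). Slc25a25 (adjusted p = 0.0146) had −0.34, −0.47, −0.94 and −1.55, with 5 of 6 I/R arrays above background at 48 weeks. The remaining ones were Slc25a15 (adjusted p = 0.0189), Slc25a37 (0.0397) and Slc25a44 (0.0447), which passed in 7, 7 and 3 of 10 alternative settings. Slc25a13 (adjusted p = 0.552) and Slc25a36 (0.957), 2 of the carriers furthest from 0, did not pass this test.

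Without ischaemia no carrier passed between ages. In normoxic hearts 0 of 34 carriers passed at 16, 32 or 48 weeks against 8 weeks (limma), while 0.0408%, 1.58% and 1.65% of all genes did. At an unadjusted p under 0.05 there were 2, 3 and 1 carriers (5.88%, 8.82% and 2.94%), against 5.70%, 11.6% and 10.3% of all genes. The F test over the 4 ages also called 0 carriers (1.68% of all genes), with 3 at an unadjusted p under 0.05 (8.82%, against 9.62% of all genes) and a smallest adjusted p of 0.161. Between 32 and 16 weeks and between 48 and 32 weeks the count was 0 too, against 0.051% and 0% of all genes. At 48 against 8 weeks the 34 log2 fold changes lay between −0.29 and 0.56, with a median of −0.02 for the carriers and −0.00 for all genes.

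The glutamate carrier Slc25a22 had the highest of these values. Its normoxic medians were 8.16, 8.96, 8.57 and 8.79 at 8, 16, 32 and 48 weeks, with 7.66 to 8.64 at 8 weeks overlapping 8.41 to 8.89 at 48 weeks. The 48-week log2 fold change was 0.56 ± 0.191 (SE, adjusted p = 0.158), and with array weights 0.59 (adjusted p = 0.0346). Slc25a39 had medians of 11.29, 11.45, 11.57 and 11.30. Its 8-week values, 11.22 to 11.39, lay below those at 32 weeks, 11.43 to 11.59 (1.95% of all genes did not overlap there), with a log2 fold change of 0.24 (adjusted p = 0.164) and, with array weights, 0.26 (adjusted p = 0.0306). Slc25a37 was the only carrier whose 48-week values (6.47 to 6.85) did not overlap those at 8 weeks (6.09 to 6.39), against 1.90% of all genes, with a log2 fold change of 0.30 (adjusted p = 0.646). For the carriers furthest from 0 after I/R, the normoxic log2 fold change at 48 against 8 weeks was −0.13 for Slc25a4 (above background on 3 of 6 arrays at either age), −0.18 for Slc25a13 and 0.29 for Slc25a36, none of which passed.

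**Figure D3:**
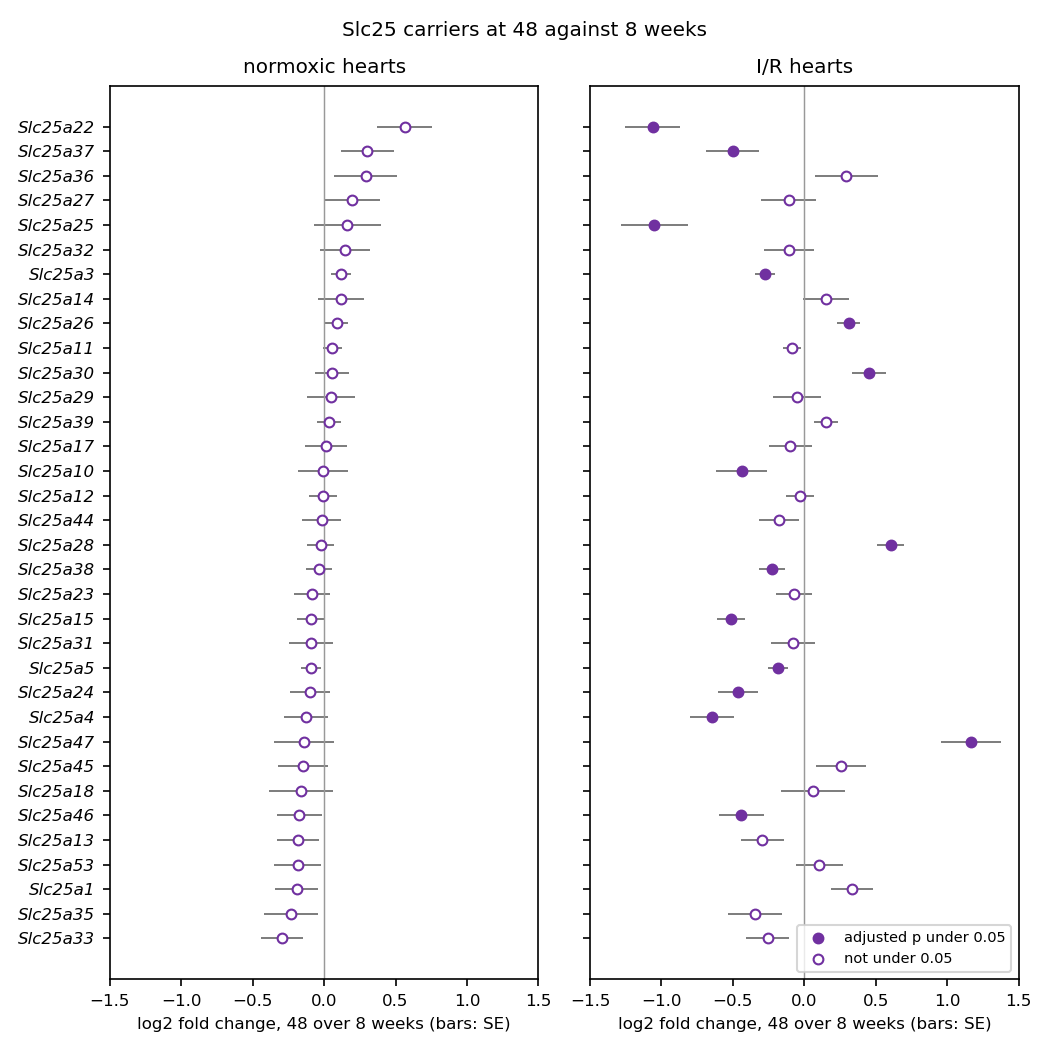
Log2 fold change at 48 against 8 weeks of the 34 carriers in normoxic hearts (left) and in I/R hearts (right), bars SE, ordered by the normoxic value. On the left 0 points are filled (adjusted p under 0.05) and on the right 15, 4 higher and 11 lower, or 4 higher and 6 lower with centring over detected probes.

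Among I/R hearts some carriers passed between ages, in shares near those of all genes. At 48 against 8 weeks 15 of 34 passed (44.1%), 4 higher and 11 lower, against 39.3% of all genes (18.7% higher, 20.7% lower). The split was 2 higher and 15 lower with centring on all probes, and 4 higher and 6 lower with centring over detected probes. Over the 4 ages the F test called 20 (58.8%; 52.7% of all genes). At 16 against 8 weeks 0 passed (limma, 1.76% of all genes), and at 32 against 8 weeks 15 did (4 higher, 11 lower), against 39.8% of all genes (17.6% higher, 22.2% lower). These comparisons use the same I/R arrays as the interaction test. RIN and the number of detected probes were lower in the older I/R hearts. As RIN moved with age, its part cannot be told apart from that of age by a model with RIN. The part of detection was not tested.

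Slc25a47 was higher at 48 weeks by a log2 value of 1.17 ± 0.209 (SE, adjusted p = 1.56e-05) and Slc25a28 by 0.61 ± 0.0942 (SE, adjusted p = 1.48e-06), both without overlap. At 8 weeks 4 of 6 arrays detected Slc25a47. Slc25a30 (0.45) and Slc25a26 (0.31) were higher as well, and with centring on all probes were 0.15 and 0.08 and did not pass. Lowest were Slc25a22 at −1.06 ± 0.191 (SE, adjusted p = 1.75e-05) and Slc25a25 at −1.05 ± 0.236 (SE, adjusted p = 0.000383), the latter above background on 5 of 6 arrays at 48 weeks. The ADP/ATP carrier Slc25a4 was lower by −0.64 ± 0.153 (SE, adjusted p = 0.000729), and the phosphate carrier Slc25a3 by −0.27 ± 0.0698 (SE, adjusted p = 0.00158). Of the 7 carriers of adenine nucleotides and phosphate 5 were lower at 48 weeks and 0 higher, against 20.7% and 18.7% of all genes. The 5 include Slc25a5 and Slc25a24, whose limits are given below. Slc25a15 (−0.51) also passed, as did Slc25a37 (−0.50, above background on 4 of 6 arrays at 8 weeks and 1 of 6 at 48 weeks) and Slc25a10 (−0.44, 6 of 6 and 3 of 6 arrays). With centring over detected probes Slc25a5, Slc25a10, Slc25a24, Slc25a37 and Slc25a46 no longer passed. Slc25a24 passed with 3 of 6 I/R arrays above background at 8 weeks and 0 of 6 at 48 weeks, and Slc25a46 with 2 of 6 and 0 of 6, and no fold is given for either. Against normoxic hearts at 48 weeks, where 6 of 6 arrays detected it, Slc25a24 was at least 1.20-fold lower in I/R hearts (adjusted p = 5.07e-07).

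Proteins that work with the carriers were read from lists of related genes. Voltage-dependent anion channels form the outer membrane pores through which carrier substrates pass, and Vdac3 (log2 fold change 2.95 after I/R) and Vdac2 (1.54) were higher. Vdac1 had 0.18 and, with centring on all probes, −0.35. Of 7 genes of carrier partners tested, 2 were higher and 3 lower. The malate dehydrogenases of the malate-aspartate shuttle, Mdh2 (3.18) and Mdh1 (1.60, second probe 2.40), were higher. Mitochondrial aspartate aminotransferase, Got2, was lower (−0.15, second probe −0.89), as were the creatine kinase Ckmt2 (−0.43) and the hexokinase Hk1 (−0.65). Of 15 ATP synthase genes 6 were higher and 8 lower, with Atp5d turning from higher to lower under centring on all probes. Atp5e had 3.21, Atp5k 1.18 (second probe 3.53), and Atp5j2 −0.73. Atp5a1 had 1.92 by its first and −0.49 by its second probe. Atp5j (−0.30) and Atp5l (−0.23), which passed as lower, had 1.10 and 2.23 by their second probes. Atp5pb (−0.08), which did not pass, had 2.02 by its second.

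The machinery that brings carriers into the inner membrane was read in the same way. Of 7 genes of the TOM complex, the entry gate of the outer membrane, 5 were lower and 0 higher after I/R. Of all genes 44.4% were lower and 34.6% higher. Tomm40, its pore, had −1.42 (second probe −0.06), Tomm6 −0.48 (second probe −0.71), Tomm70a −0.34 and Tomm22 −0.23 (second probe 0.04). The second probe of Tomm70a, the receptor for carrier precursors, gave 1.64. Of 6 genes of the TIM22 carrier import route 2 were higher and 3 lower, with Timm13 higher under centring over detected probes. Timm8a1 had 0.83, or 0.11 with centring on all probes. Timm10 had 0.26, or −0.44 with that centring. At 48 against 8 weeks in normoxic hearts Timm8a1 was the 1 gene of these 6 that passed, with a log2 fold change of 0.42 (adjusted p = 0.0347). None of the 7 TOM genes passed in that comparison.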

How the data were processed

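RNA of 48 left ventricles, 6 in each of 8 groups of age and treatment, was measured on Illumina mouse bead arrays after amplification to biotinylated cRNA, per the labels' protocols. The deposited probe intensity is not normalized, per the file headers. The deposited column headed as a p-value rises with the signal (lowest rank correlation 0.995) and was read as a detection score, a fraction from which 1 minus the score gives the detection p. The authors' deposited processed values are close to a log2 scale. Their transform is not stated, and lumi is named, without a version, per the submitters' processing notes. Aligners and a genome build play no part in these arrays. The number of arrays limits the precision.

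Signals were corrected for background (normexp from detection p, offset 16), quantile normalized and put on a log2 scale with limma 3.58.1 in R 4.3.3 (statmod 1.5.0 and the data.table package at version 1.17.8). Of 46624 probes, 29971 had a single gene symbol in the annotation of the platform, 10 several and 16643 none, and 29916 symbols were updated through the Entrez number. Probes with a detection p under 0.05 on 6 or more arrays entered the fit (17624, of which 4077 unnamed). The brightest probe stood for each of 9811 genes, 2813 of which had a second detected probe, fitted separately. Signals of different probes were not compared.

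A linear model with 8 group means was fitted to all arrays (lmFit, eBayes). Two-sided p-values were adjusted by Benjamini-Hochberg over all genes within a comparison, with a threshold of 0.05, and the procedure was tested on simulated data. The 8 largest changes in each direction (or the 8 smallest p of an F test) were given with their statistics, and other carriers by their values. Up to 4 genes per related list were chosen by smallest p, and further ones were named beside them. Where only some arrays of the dimmer side detected a probe, their number is given. Where none did, a fold is a bound against each array's lowest detected signal, and is left out where that bound is under 1. Marker sums add normalized signals on the linear scale. Alternatives covered scaling, background, filters, probes, RIN, array weights, replicate number and left-out samples. Array centring over detected probes was added after seeing the data. The carriers and the gene lists were chosen with earlier results of these data known. 1 carrier is not reported here.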

Additional observations from a re-analysis of the deposited data

Results flagged for a closer look

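The interaction of I/R with age passed an adjusted p under 0.05 (limma F test) for 11 carriers, which are listed because the I/R difference then differs between ages. The adjusted p was 1.72e-05 for Slc25a28, 7.72e-05 for Slc25a22, 9.58e-05 for Slc25a47, 0.00161 for Slc25a4, 0.00186 for Slc25a11, 0.00441 for Slc25a38, 0.0133 for Slc25a3, 0.0146 for Slc25a25, 0.0189 for Slc25a15, 0.0397 for Slc25a37 and 0.0447 for Slc25a44. In 10 of 10 alternative settings Slc25a28, Slc25a22, Slc25a47, Slc25a4 and Slc25a25 passed.

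A single sample stood apart from the other 5 of its group, by Dixon's criterion, in 13 of 272 carrier groups, and chance gives about 1 in 20. For Slc25a11 these were 11.7 (log2 signal) in 16-week I/R replicate 5, 11.6 in 48-week I/R replicate 6 and 13 in 32-week normoxic replicate 4. Replicate 4 of the 32-week normoxic group also stood apart for Slc25a17 at 6.73 and for Slc25a37 at 7.05. For Slc25a24 the value was 6.41 in 32-week I/R replicate 1 and 6.81 in 8-week normoxic replicate 1. The others were Slc25a12 at 9.46 in 8-week I/R replicate 3, Slc25a25 at 6.20 in 16-week I/R replicate 3, and Slc25a36 at 7.21 in 32-week I/R replicate 5. Slc25a37 stood at 6.09 in 8-week normoxic replicate 6, Slc25a4 at 8.43 in 32-week I/R replicate 4 and Slc25a53 at 5.31 in 16-week normoxic replicate 2.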

How the results depend on the processing

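Leaving out any 1 array gave 29 to 29 carriers for I/R against normoxic hearts (48 fits), 0 to 0 for 48 against 8 weeks in normoxic hearts (12 fits) and 0 to 0 for any age in normoxic hearts (24 fits). With array weights 1 carrier passed for 32 against 8 weeks (Slc25a39), 1 for 48 against 8 weeks and 1 for any age (Slc25a22). The interaction of I/R and age called 7 carriers, not 11, with the mean of the detected probes. With centring on the median of all probes the I/R log2 fold change turned to −0.30 for Slc25a26, −0.32 for Slc25a30, −0.28 for Slc25a3 and −0.39 for Slc25a39, while the median of all genes moved by −0.52. Slc25a30 had −0.042 with the mean of detected probes and −0.47 by its second probe, and Slc25a11 had 0.17 by its second probe. Beyond the scaling and the probes themselves, the cause was not tested. With RIN in the model, which moves with treatment, 8 carriers were higher and 16 lower. The labels give the groups the same replicate numbers. Samples of the same number did not deviate together (168 pairs, correlation −0.213 to 0.206, 12 over 0.1), and the replicate block left 29 carriers for I/R, 10 for the interaction and 0 for age in normoxic hearts. Signal over background limits the 18 carriers that were not detected on all arrays.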

Other observations

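Genes around the carriers that no comparison above describes were read from lists. Of 5 genes of mitochondrial calcium handling tested after I/R, Micu2, a gatekeeper of the calcium uniporter, had a log2 fold change of 0.72 (second probe 0.25), and −0.03 with centring on all probes. The uniporter pore Mcu was lower (−0.58, second probe −0.83), as were its partner Smdt1 (−0.34) and the sodium/calcium exchanger Slc8b1 (−0.16), while Letm1 (−0.04) did not pass. Of 11 regulators of mitochondrial biogenesis 3 were higher and 7 lower, and 2 of the 3 (Esrrg and Ppargc1a) were lower with centring on all probes. Ppargc1b, a coactivator, had −0.94, and the receptor Ppard −0.52. Gabpa had −0.90 by its first and 0.78 by its second probe, and Tfb1m 0.77, or 0.08 with centring on all probes.

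Of 3 Slc25 relatives under other symbols, the outer membrane proteins Mtch1 and Mtch2 had log2 fold changes after I/R of 0.44 and −0.83 by their first probes, and of −1.41 and 0.08 by their second. Ucp3 had −0.05 and did not pass.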
